A study of Mus musculus with 7 samples.

Results

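The serpin genes of the mouse were placed against lamin-associated domains (LADs), the stretches of chromatin that lie at the nuclear lamina, in fibroblasts. Members were all protein-coding genes whose symbol is Serpin followed by a letter and a digit, with positions from RefSeq on GRCm38.p6, the build also called mm10. This gave 63 genes, of 21130 protein-coding genes that lay between the first and last LAD of their chromosome. A gene was counted as inside a LAD when its midpoint was.

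The LADs belong to a CUT&RUN study, in which an antibody directs a nuclease to cut and release the DNA around its target. The cells were mouse embryonic fibroblast lines named iMEF, derived independently from animals of a single colony, and carried no labelled treatment or mutation. The deposited list is wild type and merged by its name, which does not say which libraries were merged, and it gives 1437 domains without a value per domain or per library. The study made 2 libraries each for Lamin B1 and the IgG control, 2 for H3K9me2 with different antibodies and 1 for H3K14ac, and only the domain list was analysed here. Lamin B1 is a protein of the lamina, and that the list rests on the Lamin B1 libraries was inferred from its name. The read depth behind it is unknown and no placement below has a replicate error. The list holds positions only, so the fibroblast identity of the cells was not checked against marker genes.

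Serpins are a family of proteins of which most inhibit serine proteases. A serpin offers an exposed loop as bait, and when the protease cuts it the serpin changes shape and traps the enzyme. Letters name the clades. Clade A holds many secreted liver and plasma proteins, and clade B intracellular inhibitors of epithelial and blood cells. The clades from C to I are mostly single genes of coagulation, fibrinolysis, complement, collagen folding and the nervous system. LADs in fibroblasts are mostly poor in active genes.

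Of the 63 serpin genes, 36 (57.1%) had their midpoint in a LAD and 27 did not. The share over all protein-coding genes was 24.6%. The members were linked to each other: the 36 inside occupied 6 LADs, and the 27 outside occupied 11 gaps between LADs. Genes of a cluster are neighbours and share a domain, so they are not independent observations, and the family share was described and not tested.

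By clade, 22 of 24 Serpina genes, 12 of 28 Serpinb genes and both Serpini genes were inside. No gene of the other clades had its midpoint inside. For Serpine2 the side is uncertain, as its midpoint was 0.758 kb from a border that runs through the gene. Linking members whose midpoints were at most 1 Mb apart gave 13 loci, of which 5 held more than 1 gene and 8 were single genes. The Serpina cluster of chromosome 12 and the Serpinb clusters of chromosomes 1 and 13 held 51 of the members. Among the 12 members elsewhere, 3 (25%) were inside, close to the 24.6% of all genes.

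**Figure D1:**
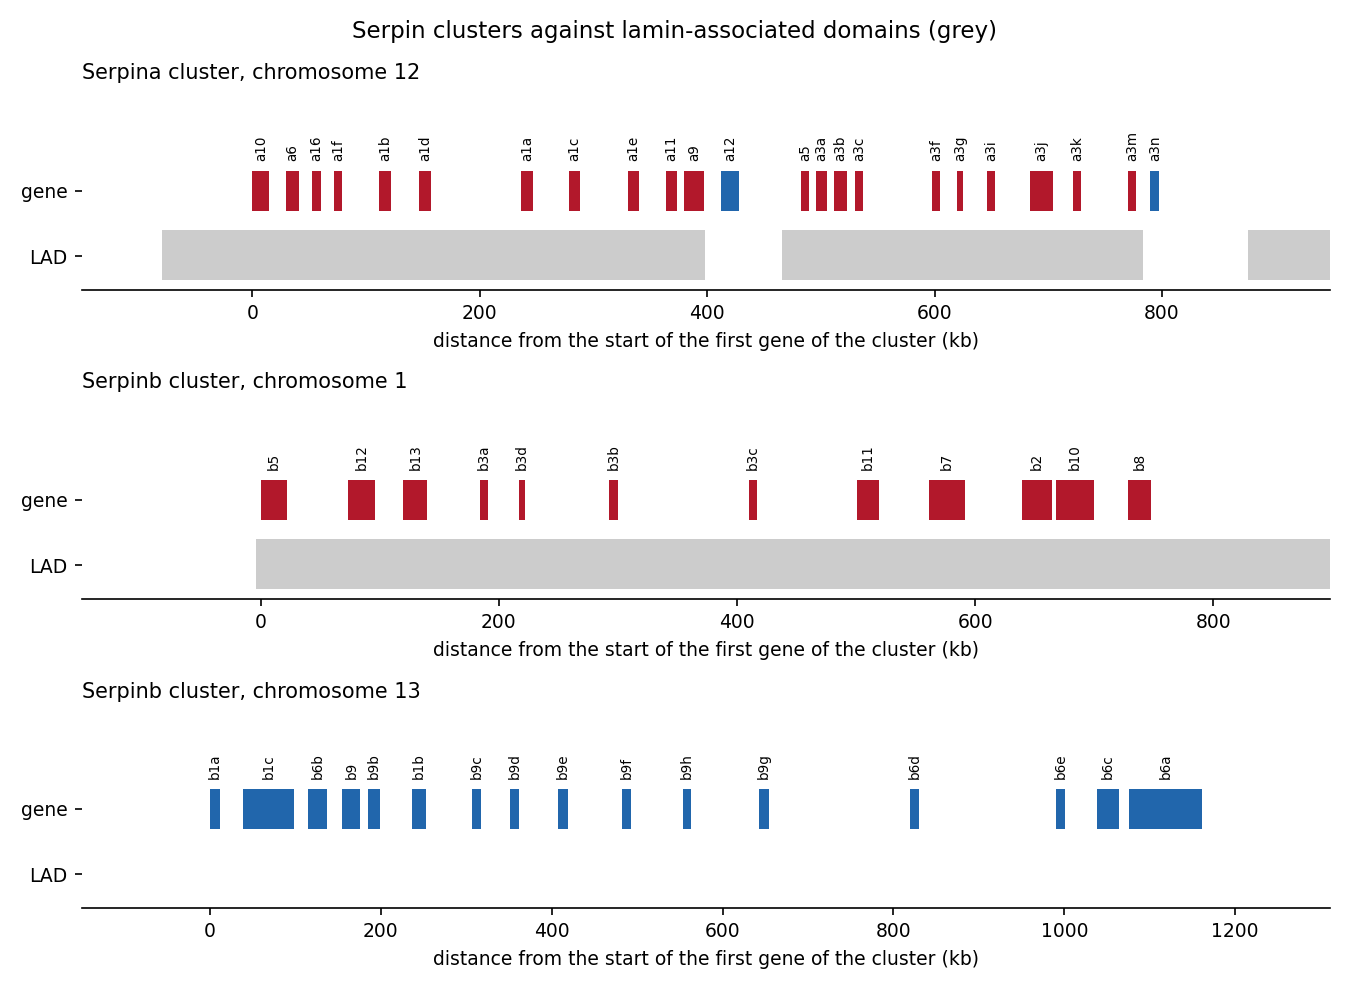
Maps of the 3 serpin clusters, with distance from the start of the first gene in kb on the horizontal axis, LADs as grey bars and genes as boxes, red where the midpoint is in a LAD and blue where it is not (symbols without Serpin). The chromosome 12 cluster lies across 2 LADs, with a12 and a3n outside, all 12 genes on chromosome 1 are in a single LAD, and no LAD is near the 16 genes on chromosome 13.

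The Serpinb genes of chromosome 1 encode inhibitors known mainly from skin and other epithelia and from blood cells. The cluster ran over 747.8 kb (chr1:106861175-107608978), held 12 genes and lay wholly inside a LAD, with 100% of its bases covered. That LAD (chr1:106857163-118257126) measured 11.4 Mb and was the longest of the 1437. It contained 17 protein-coding genes, of which 12 were serpins. The serpins filled its first 751.8 kb, or 6.59% of its length. In the other 10.6 Mb there were 5 protein-coding genes, namely Cdh7, Cdh19, Dsel, Cntnap5a and B020011L13Rik, and the first of these began 2373 kb after the last serpin.

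The border of this LAD lay 4.01 kb before the cluster's first gene, Serpinb5. Serpinb5 encodes maspin, a non-inhibitory serpin of epithelial cells, and its midpoint was 15.1 kb inside. The other members followed in order of distance. Serpinb12 was 88.6 kb inside, and Serpinb13, a keratinocyte serpin also called headpin, 133.9 kb. The 4 Serpinb3 genes, which encode inhibitors of the squamous cell carcinoma antigen type, lay 191.8 kb (Serpinb3a), 223.7 kb (Serpinb3d), 300.4 kb (Serpinb3b) and 417.6 kb (Serpinb3c) from the border. Serpinb11 was at 514.2 kb and Serpinb7 at 580.5 kb. Serpinb2, which encodes plasminogen activator inhibitor 2, was at 656.1 kb, and Serpinb10 at 687.7 kb. Serpinb8 was the deepest member of the family, at 742.3 kb.

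The genes on the other side of the border were not serpins. Within 1 Mb below the cluster there were 5 protein-coding genes, and none had its midpoint in a LAD. Vps4b, which encodes an ATPase of endosomal sorting, was the nearest at 73.4 kb from the border. Kdsr was at 117.1 kb and Bcl2, the inhibitor of apoptosis, at 230.9 kb. The change from outside to inside therefore fell between Vps4b and Serpinb5, at the end of the serpin cluster. Borders in the list fall on steps of about 2.5 kb and may be less precise than that, so the 4.01 kb before Serpinb5 is little more than the step.

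The promoters of Serpinb5, at the border, and of Serpinb3b, well inside, are printed to show their base composition. Both are RefSeq sequences of GRCm38.p6, from 250 bases before to 50 after the annotated start, 5′ to 3′. Capitals mark CG dinucleotides and the motif TATAAA on either strand. Serpinb5 (chr1:106860925-106861224, plus strand) has 7 CG dinucleotides, the most of the 11 promoters available for this cluster. Serpinb3b (chr1:107161065-107161364, minus strand) has 0 and carries TATAAA.
Serpinb5: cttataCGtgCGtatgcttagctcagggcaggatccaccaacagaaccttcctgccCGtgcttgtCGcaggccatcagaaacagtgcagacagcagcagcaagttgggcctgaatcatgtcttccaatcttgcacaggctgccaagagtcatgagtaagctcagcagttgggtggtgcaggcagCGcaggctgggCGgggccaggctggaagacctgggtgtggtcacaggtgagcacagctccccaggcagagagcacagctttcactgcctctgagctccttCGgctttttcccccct
Serpinb3b: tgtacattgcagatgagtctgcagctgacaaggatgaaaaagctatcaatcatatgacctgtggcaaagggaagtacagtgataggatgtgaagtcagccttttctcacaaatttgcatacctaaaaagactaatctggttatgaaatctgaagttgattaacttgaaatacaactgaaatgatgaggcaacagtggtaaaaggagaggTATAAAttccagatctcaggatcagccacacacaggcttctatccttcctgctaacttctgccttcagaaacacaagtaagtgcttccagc

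The Serpinb cluster of chromosome 13 (chr13:32842092-34002794) lay at the opposite extreme. It holds 16 genes of 3 kinds. Serpinb1 genes encode inhibitors of neutrophil elastase, Serpinb6 genes inhibitors of cathepsin G and related enzymes, and Serpinb9 genes inhibitors of granzyme B or relatives of them. All 16 were outside LADs, and no base of the 1161 kb was covered. They lay in the longest of the 1416 gaps, which measured 15.8 Mb (chr13:23248269-39025718) and contained 148 protein-coding genes. The member nearest to a LAD was Serpinb6a, 5065 kb away, and the farthest was Serpinb1a, 6178 kb away. Between them, Serpinb9 was at 6018 kb and Serpinb9g at 5535 kb. The median distance to a border of all protein-coding genes outside LADs was 759.6 kb, below the distance of each of the 16.

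The clade B clusters differed in signed distance to a border and in the LAD share around each gene. Both differences largely follow from the placement, since the chromosome 1 genes share a single LAD and the chromosome 13 genes a single gap. Each of the 12 genes on chromosome 1 was inside by 15.1 to 742.3 kb, and each of the 16 on chromosome 13 was outside by 5065 to 6178 kb. Of the bases within 1 Mb of each gene's midpoint, 50.8% to 87.1% were in LADs on chromosome 1, and 0% for each gene on chromosome 13. The median over all protein-coding genes was 24.1%, with 78.1% for those inside LADs and 7.76% for those outside. The neighbours on chromosome 13 were outside too, with 0 of the 17 other protein-coding genes within 1 Mb in a LAD.

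**Figure D2:**
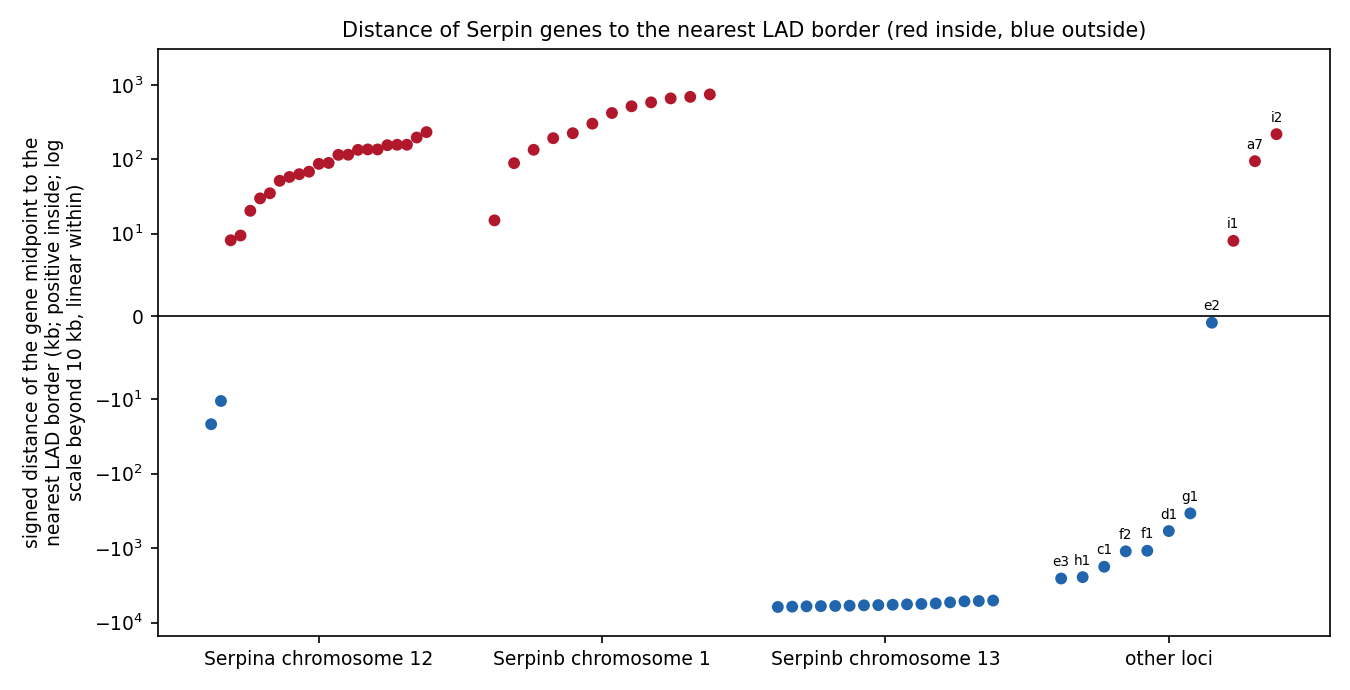
Signed distance of gene midpoints to the nearest LAD border in kb (positive inside, negative outside; logarithmic beyond 10 kb and linear within), with each point a gene, ordered by value in its group. The chromosome 12 points lie between -21.7 and 231.2 kb, chromosome 1 between 15.1 and 742.3 kb and chromosome 13 between -6178 and -5065 kb, and the other loci (named without Serpin) range from -2562 kb for Serpine3 to 217.2 kb for Serpini2.

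The Serpina cluster of chromosome 12 (chr12:103616675-104414334) holds, among others, plasma protein genes expressed mainly in the liver. It spanned 797.7 kb with 23 genes, of which 21 (91.3%) were inside LADs. LADs covered 89.7% of its bases. They came in 2 domains, the first of 477.5 kb (chr12:103537417-104014914) and the second of 317.5 kb (chr12:104082415-104399913). Both were of ordinary length, as 51.6% of the 1437 LADs were not longer than the first and 41.6% not longer than the second.

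The first domain held 11 serpins from Serpina10 to Serpina9. Serpina10 encodes the inhibitor that acts with protein Z on coagulation factor X and was 86.7 kb inside. Serpina6 encodes corticosteroid-binding globulin, a hormone carrier, and was 114.5 kb inside. The 5 copies of the alpha-1 antitrypsin gene, the inhibitor of neutrophil elastase in plasma, were all inside. Serpina1b lay at 195.8 kb, Serpina1d at 231.2 kb, Serpina1a at 156.5 kb, Serpina1c at 115.0 kb and Serpina1e at 63.0 kb. Serpina1d was the deepest gene of the cluster, still below the median of 307.7 kb for all protein-coding genes inside LADs. Serpina16 and Serpina1f lay at 135.4 and 154.4 kb. Serpina11 was 29.8 kb from the upper border, and Serpina9, a serpin of germinal centre B cells, 9.78 kb. The domain contained 1 other protein-coding gene, Ppp4r4.

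The second domain held 10 protein-coding genes, and all 10 were serpins. Serpina5, which encodes the protein C inhibitor, was 20.3 kb inside its lower border. The other 9 were Serpina3 genes, relatives of antichymotrypsin that multiplied in rodents. Their distance inside ran from 9.21 kb for Serpina3m to 156.6 kb for Serpina3g. Serpina3c was 68.0 kb inside and Serpina3k 57.8 kb. Serpin genes were thus packed closely within these LADs, with 25.1 protein-coding genes per Mb in the first domain and 31.5 in the second, against 3.92 over all LADs and a median of 13.4 for the 116 LADs with at least 10 protein-coding genes. Among those 116 the second ranked 10 and the first 21 in gene density, and the chromosome 1 LAD ranked last with 1.49 genes per Mb. Length enters these ranks. The second domain had just the 10 genes that the limit asks for, and the chromosome 1 LAD was the longest in the list.

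The cluster's exceptions were Serpina12 and Serpina3n. Serpina12 encodes vaspin, a serpin secreted by fat tissue. It was the only protein-coding gene with its midpoint in the 67.5 kb gap between the domains (chr12:104014915-104082414), 21.7 kb from the nearest border, and none of its bases was in a LAD. Of the 1416 gaps, 84 (5.93%) were not longer than this. The shortest gap in the list measured 52499 bp, so the gap with Serpina12 lay near the lower limit of what the list holds. Serpina3n, an acute-phase inhibitor of leukocyte proteases, was the last gene of the cluster. It lay 10.6 kb outside the second domain in a gap of 92.5 kb, together with Gsc, which encodes the homeobox protein goosecoid. Serpina12 and Serpina3n counted as outside with either gene end, with the whole gene and with any overlap. They counted as inside only once gaps of at most 250 kb were joined. The margin of Serpina3n was small, and its annotated start was 6.80 kb outside. Lengthened LADs were scored by the midpoint only, which for Serpina3n was 10.6 kb outside.

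Serpina3n is a close relative of Serpina3c, which was inside the second domain. Their promoters are shown because they were the only pair of serpin promoters at least 70% identical with the annotated starts on opposite sides of a border. Capitals mark bases that differ between them or face a gap in a global alignment, which had 19 substitutions and 6 unmatched bases in each sequence, and an identity of 89.9%. The start of Serpina3c (chr12:104153823-104154122, minus strand) was 71.5 kb inside, and that of Serpina3n (chr12:104406458-104406757, plus strand) was 6.80 kb outside. The sides of these starts were not checked with lengthened LADs.
Serpina3c: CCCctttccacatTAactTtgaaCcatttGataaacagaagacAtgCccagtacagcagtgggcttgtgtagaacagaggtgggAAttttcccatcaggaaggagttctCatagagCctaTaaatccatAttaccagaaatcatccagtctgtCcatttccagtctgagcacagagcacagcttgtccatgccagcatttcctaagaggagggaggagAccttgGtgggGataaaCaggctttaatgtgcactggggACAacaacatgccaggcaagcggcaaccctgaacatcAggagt
Serpina3n: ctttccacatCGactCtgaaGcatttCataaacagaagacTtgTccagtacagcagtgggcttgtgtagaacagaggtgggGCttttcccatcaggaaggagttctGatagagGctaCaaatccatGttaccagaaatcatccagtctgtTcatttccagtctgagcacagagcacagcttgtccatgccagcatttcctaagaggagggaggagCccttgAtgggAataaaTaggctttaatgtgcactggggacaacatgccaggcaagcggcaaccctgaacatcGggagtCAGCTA

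Copies this similar bear on the measurement, because short reads from them can align to more than 1 place. How such reads were treated is not given in the sources used here. In all, 16 of the pairs of serpin promoters were at least 70% identical, and each pair lay within 1 cluster. There were 7 such pairs in the Serpina cluster, 3 in the chromosome 1 cluster and 6 in the chromosome 13 cluster, so copies occurred inside and outside LADs. The highest identities were 91.4% for Serpina1b and Serpina1c, 90.0% for Serpinb3b and Serpinb3c and 93.4% for Serpinb9e and Serpinb9g. Their part in the placement of borders was not tested.

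The surroundings of the Serpina cluster alternated between LADs and gaps. Of 29 other protein-coding genes within 1 Mb, 11 (37.9%) were inside. Unc79 and Prima1 below the cluster were in a LAD, and so were Tcl1 and its 5 Tcl1b relatives above it. Ddx24, Otub2, Dicer1 and Gsc were outside. LADs made up 55.2% to 65.5% of the bases within 1 Mb of the 23 serpins. These shares were below the median of 78.1% for all protein-coding genes inside LADs and above the 7.76% for those outside.

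**Figure D3:**
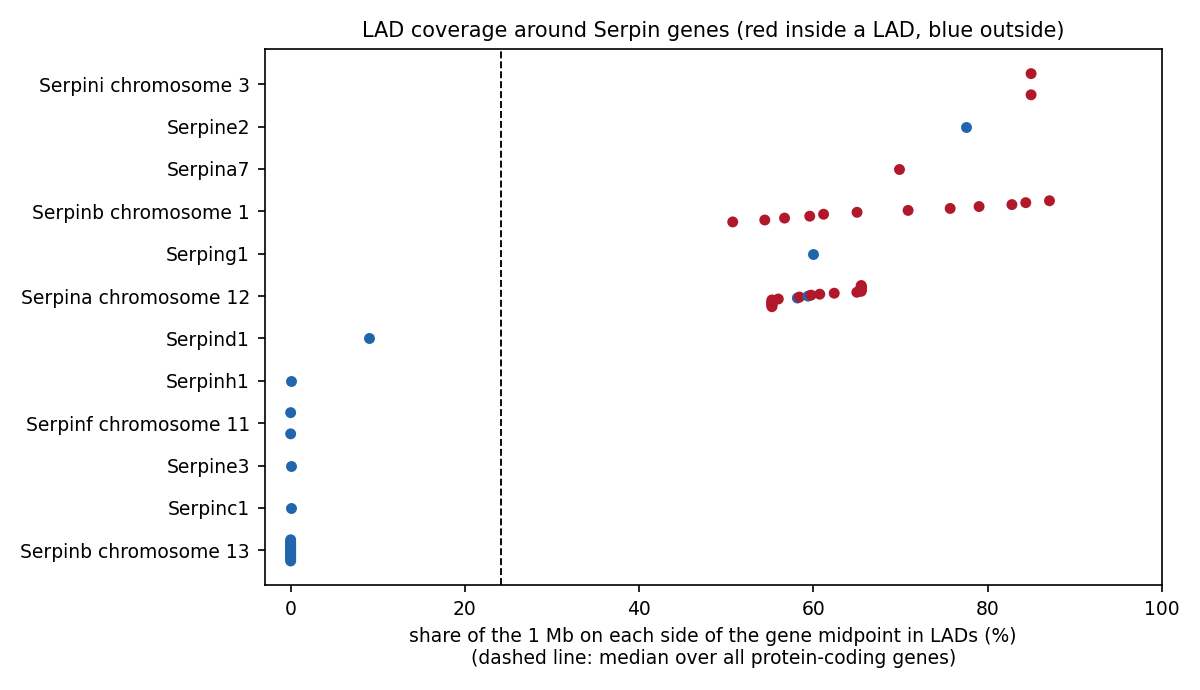
Share of the bases within 1 Mb on each side of the gene midpoint that lie in LADs, in percent, for serpin genes by locus (red inside a LAD, blue outside), with a dashed line at 24.1%, the median of all protein-coding genes. Serpin loci fall into a group at 0% to 9.0% and a group above 50%. The latter includes Serping1 and Serpine2, whose midpoints are outside, that of Serpine2 by 0.758 kb.

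The serpins outside the clusters are described by what they act on. Among the coagulation and fibrinolysis inhibitors, Serpinc1 (antithrombin; chr1:160978583-161002543) was 1781 kb from the nearest LAD. Serpind1 (heparin cofactor II; chr16:17331371-17343574) was 590.4 kb away. Serpinf2 (alpha-2-antiplasmin; chr11:75431736-75439501) was 1105 kb away. Its neighbour Serpinf1 (pigment epithelium-derived factor, a non-inhibitory serpin that restrains vessel growth; chr11:75410029-75422623) was 1086 kb away. None of the other protein-coding genes within 1 Mb of Serpinc1 (22) or the Serpinf pair (40) was in a LAD.

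Serpinh1, also called HSP47, is a chaperone of the endoplasmic reticulum that collagen-producing cells need to fold collagen. It lay 2454 kb outside (chr7:99345375-99353239), in a gap with 95 protein-coding genes. Serpine3 (chr14:62663298-62692243) was the farthest of these genes from a LAD, at 2562 kb. Serping1, the C1 inhibitor of the complement system (chr2:84765360-84775444), was outside but closer, at 341.7 kb from the nearest border. It lay in a gap of 717.5 kb, and LADs took up 59.9% of the bases within 1 Mb. The LAD above it was the 5255 kb domain chr2:85112142-90367124, and 19 of the 30 protein-coding genes within 1 Mb above Serping1 were inside LADs.

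Serpina7, which encodes the carrier protein thyroxine-binding globulin, is the clade A gene outside the cluster. It lay on the X chromosome (chrX:139079249-139085236), 94.1 kb inside a LAD of 2.04 Mb. Serpini2, a serpin of the pancreas (chr3:75242357-75270078), was 217.2 kb inside a LAD of 4.62 Mb.

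A border ran through 2 of the 63 genes (3.17%), Serpine2 and Serpini1. Over all protein-coding genes, 3.47% lay partly in a LAD. Serpine2 encodes protease nexin-1, an inhibitor of thrombin and plasminogen activators that fibroblasts secrete. The gene runs from 79794317 to 79858665 on the minus strand of chromosome 1, so its start is at the high coordinate. The border at 79827249 left 48.8% of the gene inside a LAD of 332.5 kb. The midpoint was 0.758 kb outside, less than the 2.5 kb step of the borders, so its side cannot be told from the midpoint. The annotated start was 31.4 kb inside the LAD, and the end of the gene was outside.

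Serpini1 encodes neuroserpin, an inhibitor of tissue plasminogen activator in neurons. The gene runs from 75557493 to 75642523 on the plus strand of chromosome 3, and the border at 75590872 left 60.7% of it inside a LAD of 265.0 kb. Its midpoint was 9.14 kb inside and its annotated start 33.4 kb outside. The start thus lay in the short gap between this LAD and the one that held Serpini2. Pdcd10, which encodes an adaptor of vascular endothelium, ends just before the start of Serpini1 and was also outside, 54.2 kb from a border.

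Serpine2 and Serpini1 were the only 2 of 54 serpins with an annotated start (3.70%) whose start and midpoint were on different sides of a border. The share was 1.55% of 16985 protein-coding genes. Scored by the start, 30 of 54 serpins (55.6%) were in LADs, against 24.6% of all genes with a start, with Serpine2 inside and Serpini1 outside. Both promoters are shown because both are rich in CG dinucleotides, marked in capitals, and were placed on the other side by the start. Serpine2 (chr1:79858616-79858915, minus strand) has 41 CG dinucleotides and a GC content of 77.7%, and Serpini1 (chr3:75557243-75557542, plus strand) has 15 and 60.0%.
Serpine2: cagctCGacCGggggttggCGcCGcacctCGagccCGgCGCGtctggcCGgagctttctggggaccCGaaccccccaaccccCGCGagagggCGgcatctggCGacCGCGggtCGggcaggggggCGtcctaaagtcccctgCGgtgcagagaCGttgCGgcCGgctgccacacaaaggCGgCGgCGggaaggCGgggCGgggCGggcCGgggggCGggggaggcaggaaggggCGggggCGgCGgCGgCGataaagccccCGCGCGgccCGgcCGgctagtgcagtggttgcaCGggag
Serpini1: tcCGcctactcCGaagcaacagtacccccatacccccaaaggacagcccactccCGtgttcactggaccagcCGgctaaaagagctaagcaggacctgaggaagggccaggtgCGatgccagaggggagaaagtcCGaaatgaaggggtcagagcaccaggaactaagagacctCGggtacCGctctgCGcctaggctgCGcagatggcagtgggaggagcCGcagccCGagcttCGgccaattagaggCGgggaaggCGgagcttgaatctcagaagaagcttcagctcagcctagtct

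Promoter sequences of RefSeq matched 54 of the 63 members. Serpin promoters were poor in CG dinucleotides, which mark the promoters of broadly active genes. The median was 3 per 300 bases, and 6 of 54 (11.1%) had 10 or more, against a median of 13 and 56.7% over 16985 protein-coding genes. Over all genes the median was 2 with the start inside LADs and 17 outside. For serpins it was 3 for the 30 starts inside and 3.5 for the 24 outside, so the serpins outside LADs had CG-poor promoters as well. The 15 promoters available for the chromosome 13 cluster had a median of 3, although all lay more than 5 Mb from a LAD.

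The 6 promoters with 10 or more CG dinucleotides were those of Serpine2 (41), Serpinb6a (25), Serpinh1 (16), Serpini1 (15), Serpina3a (11) and Serpinb6c (10). Only Serpine2 and Serpina3a had their start in a LAD. Serpinb6a is printed as the CG-rich member of the chromosome 13 cluster (chr13:34002745-34003044, minus strand), and Serpina12 as the promoter in the gap between the Serpina domains (chr12:104044394-104044693, minus strand), with 7 CG dinucleotides. Capitals mark CG dinucleotides and TATAAA on either strand.
Serpinb6a: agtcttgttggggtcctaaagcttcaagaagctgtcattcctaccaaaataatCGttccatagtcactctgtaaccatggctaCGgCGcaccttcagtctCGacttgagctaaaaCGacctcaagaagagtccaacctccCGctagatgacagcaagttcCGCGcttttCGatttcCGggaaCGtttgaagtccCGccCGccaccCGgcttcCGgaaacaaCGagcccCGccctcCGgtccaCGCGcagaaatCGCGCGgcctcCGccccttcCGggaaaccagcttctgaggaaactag
Serpina12: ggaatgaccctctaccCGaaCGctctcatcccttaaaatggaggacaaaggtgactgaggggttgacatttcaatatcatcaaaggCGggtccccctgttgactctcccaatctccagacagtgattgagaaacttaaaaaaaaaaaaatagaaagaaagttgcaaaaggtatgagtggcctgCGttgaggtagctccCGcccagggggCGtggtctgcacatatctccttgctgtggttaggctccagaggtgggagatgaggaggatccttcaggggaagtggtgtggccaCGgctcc

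The letters TATAAA, searched on both strands of the 300 bases, occurred in 7 of 11 promoters (63.6%) of the chromosome 1 cluster, in 4 of 18 (22.2%) of the Serpina cluster and in 1 of 15 (6.67%) of the chromosome 13 cluster. Over all protein-coding genes the share was 13.5%, with 25.6% for starts inside LADs and 9.51% outside, close to the shares of the Serpina and chromosome 13 clusters. Of the 7 promoters on chromosome 1, 4 were those of the Serpinb3 genes, and the promoters of Serpinb3a, Serpinb3b and Serpinb3c were 74.5% to 90% identical to each other, so they are not independent. The difference between the clusters was not tested. In the chromosome 1 cluster 6 of 11 promoters (54.5%) had no CG dinucleotide, against 5.35% of all protein-coding genes and 16.3% of those with the start in a LAD. These were Serpinb3b, Serpinb3c, Serpinb3d, Serpinb7, Serpinb10 and Serpinb11. A match of letters is a description of the sequence and was not tested as a binding site.

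**Figure D4:**
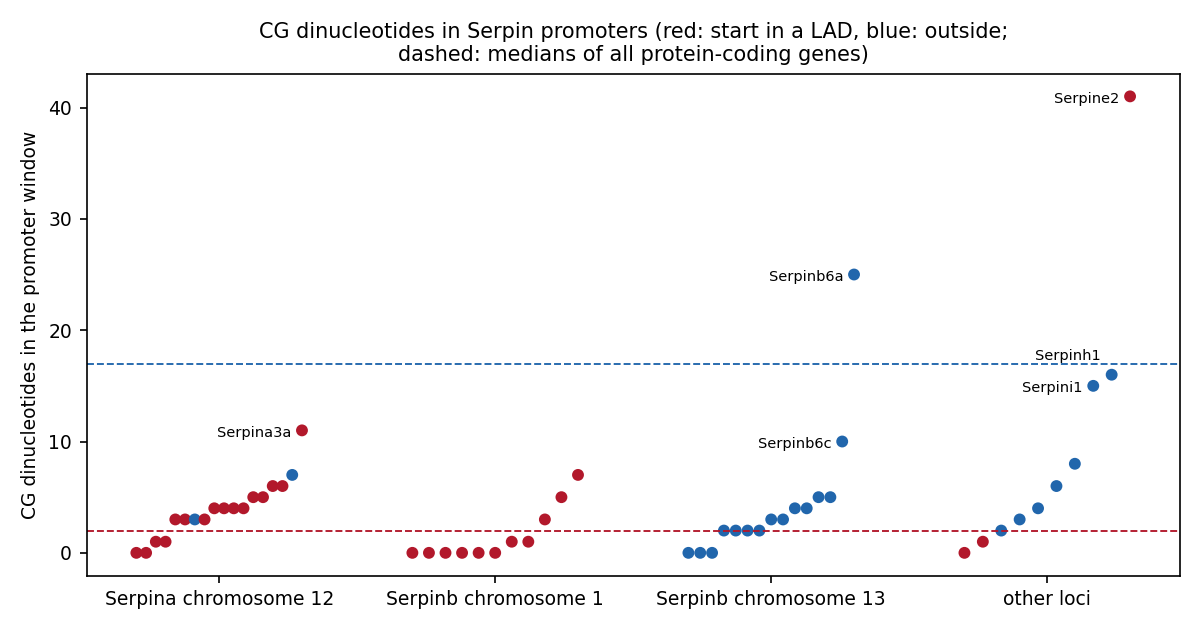
Number of CG dinucleotides in the promoter window of each serpin with a RefSeq promoter, by locus group (red: annotated start in a LAD, blue: outside), with dashed lines at the medians of all protein-coding genes, 2 for starts inside and 17 outside. The named points have 10 or more, with Serpine2 highest at 41 although its start is in a LAD.

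A list of serpins typical of fibroblasts was placed as a group. None of the 6, among them Serpine2, Serpinh1, Serpinf1, Serping1 and Serpinb6a, had its midpoint in a LAD, against 24.6% of all protein-coding genes, and their distance to a border ran from 0.758 kb for Serpine2 to 5065 kb for Serpinb6a. Scored by the start, Serpine2 was inside. The list was written with earlier results of these data known. RNA was not measured, so which serpins these cells expressed was not analysed here.

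A chosen list of proteases, receptors and other partners of serpins was placed in the same way. It was written with earlier results of these data known, is not the full set of targets, and counts neighbours such as Elane and Prtn3 separately. Of 30 genes, 1 (3.33%) was in a LAD, against 24.6% of all protein-coding genes. It was F9, the gene of coagulation factor IX on the X chromosome, 38.4 kb inside. The nearest outside was F11, the gene of coagulation factor XI, at 50.8 kb, followed by St14 (matriptase) at 51.2 kb. F2 (prothrombin, the target of antithrombin) was 1257 kb outside, Plat (tissue plasminogen activator, a target of Serpini1) 759.7 kb, Plau (urokinase) 1194 kb and Plg (plasminogen) 467.4 kb. Elane (neutrophil elastase, the target of alpha-1 antitrypsin) was 411.4 kb outside and Gzmb (granzyme B, the target of Serpinb9) 1881 kb.

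The placements differed in how much they depended on the drawing of genes and domains. Over the reported setting and 12 alternatives, 14 members were inside each time they could be placed, 24 were outside each time and 25 changed. The annotated start could not place the 9 members without a RefSeq promoter. The 12 genes of the chromosome 1 cluster, Serpini2 and Serpina7 were always inside. The 16 of the chromosome 13 cluster, and among the rest Serpinc1, Serpind1, Serpine3, Serpinf1, Serpinf2, Serping1 and Serpinh1, were always outside. All 23 genes of the Serpina cluster changed at least once, because counting only LADs of at least 500 kb removed both of its domains, and joining gaps of at most 250 kb filled the gap with Serpina12 and the gap with Serpina3n. Serpine2 and Serpini1 also changed.

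**Figure D5:**
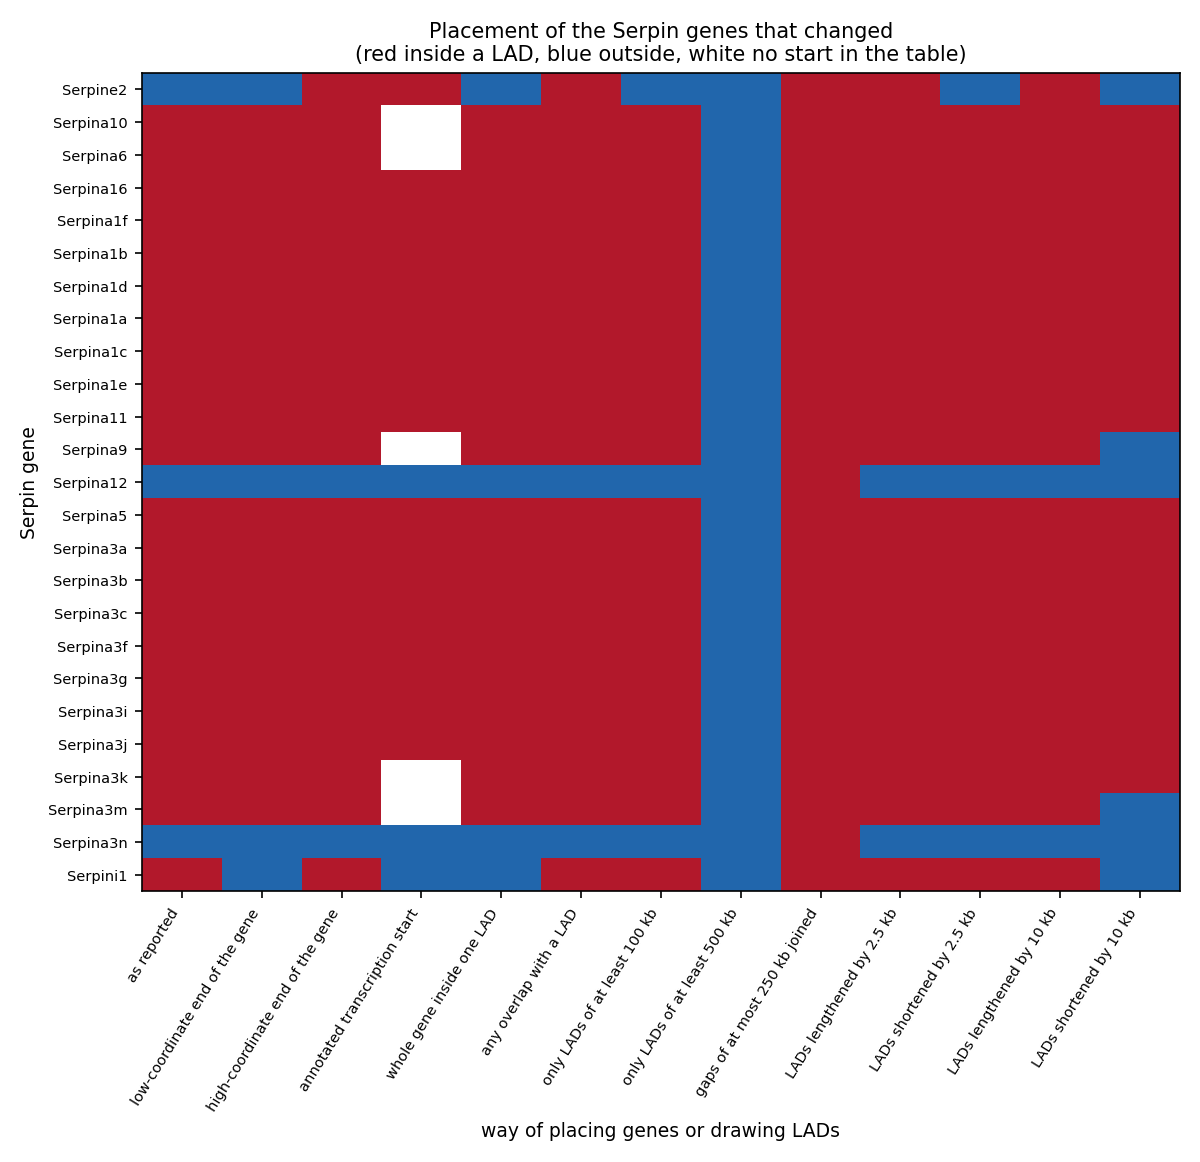
Placement of the 25 serpin genes that changed side in at least 1 of 13 settings, with genes in rows and settings in columns (red inside a LAD, blue outside, white where no annotated start was in the table). The column for LADs of at least 500 kb is blue throughout and the column for joined gaps red throughout, while Serpine2 and Serpini1 also differ with the part of the gene used.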

How the data were processed

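The authors deposited 1 list of LADs in BED format, with start and end positions in base pairs and a score of 0 in each line, so no other measurement is in it. The authors' caller, threshold and use of IgG or spike-in DNA are not given in the sources used here. Bowtie2 and mm10 stand in the submitters' processing notes, and wild type and merged only in the list's name. Domain lengths were multiples of 2.5 kb to within 125 bp (100% of domains), so borders are no finer than this step. Their precision beyond it is unknown.

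Genes came from RefSeq (GRCm38.p6, the same build), and 21130 of 21887 placed protein-coding genes lay between the first and last LAD of their chromosome. Positions count from 1. Distances run from the gene midpoint to the nearest border. Clusters link midpoints at most 1 Mb apart. Strand and start came from the RefSeq promoter table, taking the most upstream of several starts. In 1683 of 1683 places where windows of opposite strands overlapped, the sequences were reverse complements. Promoters were aligned globally in Biopython 1.88 (match 2, mismatch -1, gap opening -5, extension -0.5). Functions were tested on simulated data. Python 3.11.15, pandas 2.3.3 and numpy 2.4.6 were used.

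No test was made, since the list has no replicate values. Members and lists were chosen with earlier results of these data known. Named were all single genes and, of each cluster, the outermost, the deepest, the nearest to a border and any crossed by a border, besides others chosen after their values were seen. The printed promoters, the limits of 10 CG dinucleotides and of 70% identity, and the motif TATAAA were also chosen after values were seen. The planned comparison of protein sequences was not made, as no protein sequences were used here. 1 member enters the counts but is not reported here by itself or plotted in distance and coverage.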

Additional observations from a re-analysis of the deposited data

How the results depend on the processing

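Of 77 recomputed values, 71 kept their direction and stayed within 1.5 times the reported one. Counting only LADs of at least 500 kb lowered the share of serpins inside from 57.1% to 22.2%. The share of all protein-coding genes with that limit was not computed. The count of the Serpina cluster fell from 21 to 0 by construction, since both of its LADs are shorter. On chromosome 1 the count was 12 of 12, and on chromosome 13 it was 0 of 16, in each setting but the annotated start. That setting gave 11 of 11 and 0 of 15, because Serpinb13 and Serpinb1a have no annotated start. The median signed distance of the 63 members was 20.3 kb. It turned to -1876 kb with LADs of at least 500 kb, and was 227.8 kb with gaps of at most 250 kb joined, 31.4 kb from the high-coordinate gene end and 10.3 kb with LADs shortened by 10 kb at each end. As a median over groups far inside and far outside, it describes few genes. Moving borders by 2.5 or 10 kb was chosen after seeing the data. Counting copies such as Serpina1a to Serpina1e once gave 33 genes, and linking midpoints at 500 or 2000 kb gave the same 13 loci. Leaving out a Lamin B1 replicate was not run, because the list is merged by its name and holds no values per library. The unknown depth limits how firmly short gaps such as that of Serpina12 can be read.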

Other observations

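Serpin pseudogenes followed the clusters they belong to. The table lists 6 further Serpin symbols that are not protein-coding. Serpina3d-ps, Serpina3e-ps, Serpina3h and Serpina3l-ps were in the second Serpina domain, 94.5, 109.4, 148.8 and 39.0 kb inside. Serpina4-ps1 lay across the lower border of that domain, which left 50.3% of it inside. Serpinb1-ps1, in the chromosome 13 cluster, was 6164 kb from a LAD.

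Other protease inhibitor families fell on both sides, where 24.6% of all protein-coding genes were in a LAD. None of 19 Wfdc genes (Slpi included), small secreted inhibitors of which 15 lie on chromosome 2, was in a LAD, and none of the 3 Timp genes placed (Timp1, Timp3 and Timp4), inhibitors of metalloproteases, was. Of 12 Spink genes, 7 (58.3%) were inside, with 6 of 9 on chromosome 18. The symbol rule for cystatins, inhibitors of cysteine proteases, gave 22 of 28 inside (78.6%). It also takes in the Cstf genes of RNA cleavage and Cstad, and without these, a choice made after seeing the data, it was 21 of 23 (91.3%). The cystatins inside included the Stfa genes of chromosome 16 and Cst3 on chromosome 2, the gene of cystatin C, a broadly secreted inhibitor, at 121.7 kb from a border. Timp2 and Cst6 lie beyond the first or last LAD of their chromosome and were not placed. These families were not tested against the serpins.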
